A study of Mus musculus with 62 samples.

Results

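The genes examined were Ppargc1a and Ppargc1b, which encode the transcriptional coactivators PGC1α and PGC1β. Their members were the chromatin regions that the annotation of the deposited lists assigned to either gene, which were 330 of the 601616 regions of 16 peak lists and 4 lists of differential regions. In the peak lists, 143 regions belonged to Ppargc1a and 181 to Ppargc1b, of 596282 regions and 19220 genes. In the differential lists, 3 regions belonged to each gene, of 5334 regions.

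PGC1α and PGC1β do not bind DNA themselves. They are recruited by nuclear receptors such as the estrogen-related receptors and PPARs, and by factors such as NRF1 and MEF2, to genes of mitochondrial biogenesis and oxidative metabolism. In skeletal muscle, Ppargc1a is known as a gene that contraction, calcium and cAMP signaling induce, and it has a proximal promoter and an upstream alternative promoter. H3K27ac marks active promoters and enhancers, and H3K4me2 marks promoters and enhancers whether active or poised.

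H3K27ac and H3K4me2 were profiled by ChIP-seq in 2 replicates of each of 8 groups, which gave 32 histone libraries with 6405517 to 24195147 tags each. For the diaphragm replicate 2 libraries, the study's own listing gives the total tags of the marks exchanged relative to the deposited headers. Across peaks, the Dia replicates correlated with r = 0.944 for H3K27ac and 0.970 for H3K4me2, within the ranges of the 8 groups (0.900 to 0.953 and 0.929 to 0.970). All mice were male, and the labels give the strain of every sample as C57BL/6. The muscles compared were the extensor digitorum longus (EDL), quadriceps (Quad), soleus (Sol) and diaphragm (Dia) of sedentary wild-type mice, and each EDL, Sol or Dia sample pooled several young adults while each quadriceps sample came from 1 animal. Sed and Ex were quadriceps of wild-type mice housed without or with a running wheel for weeks, harvested hours after the last run. mTg mice carried a skeletal muscle-specific PGC1a transgene, a line known to use the muscle creatine kinase (Ckm) promoter, which is active in differentiated fibers, and Wt were their wild-type littermates, both housed sedentary. Quad, Sed and Wt were thus 3 separately made sets of sedentary wild-type quadriceps. Each library sampled whole muscle, so that a change in the share of a cell type and a change of the mark within nuclei cannot be told apart. Peaks lay at all 4 muscle fiber genes examined in each of the 8 groups, and Myh7, the slow myosin, had an H3K27ac peak only in the Sol and Dia lists. Markers of endothelium and macrophages (3 of 3 each) and of fibroblasts (2 of 2) also had peaks in every group. Of 4 adipocyte markers, Ucp1, which defines brown fat, had no peak in any group. Of the same 4, 2 had peaks in EDL, Quad, Sol, Dia and Sed, and 3 in Ex, Wt and mTg.

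A check of the transgene labels came first, since the transgene carries Ppargc1a coding sequence and Ckm promoter sequence. An H3K4me2 peak over exon 8 of Ppargc1a (chr5:51473624-51474522, mm10) was present in the list labelled Wt, with 5.22 and 5.50 log2 tags against 1.10 in input, and in no other list. An H3K27ac peak over exon 2 was called in both the Wt and the mTg list and in no other group. The strongest H3K4me2 peak of Ckm, the creatine kinase gene itself, scored 497 in the list labelled Wt and 64.3 in that labelled mTg. In the other groups it scored from 160 in Ex to 416 in Quad. The score labelled Wt was thus near that of Quad, and the one labelled mTg was the lowest. The strongest H3K27ac peak of Ckm scored 1132 in Wt and 1539 in mTg, with 385 (Ex) to 1334 (EDL) in the other groups. The H3K4me2 tags over exon 8 therefore went against the labels, and these lists are called below the H3K4me2 libraries labelled Wt and labelled mTg. The H3K27ac peak over exon 2, called in both lists, could not tell the H3K27ac labels apart. Those labels are used below as given.

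The 90 H3K27ac peaks of Ppargc1a in the 8 lists merged, with the 53 H3K4me2 peaks, into 18 regions, numbered here by position on chromosome 5 (mm10). The gene lies on the minus strand, so that low numbers are downstream. Distances are from the reference start site (NM_008904, 51553921) to the center of a region and are positive downstream. Region 12 (chr5:51549836-51556443) held the proximal promoter and exon 1, and region 13 (chr5:51565658-51572673, −15.2 kb) held the start of the upstream transcript (NR_132764, 51567725). Region 9 (chr5:51526675-51541990, 19.6 kb) and region 10 (chr5:51543096-51548150, 8.30 kb) were intronic. Region 14 (chr5:51590131-51598540, −40.4 kb) was intergenic and upstream. Regions 1 to 4 formed a far downstream group between 421 and 513 kb from the start site, assigned to Ppargc1a as the nearest gene.

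The sequences that follow are the promoters of Ppargc1a and examples of its accessible sites and of its sites of the mediator subunit MED1. The first pair are the promoters, read 5′ to 3′ on the gene's strand from GRCm38.p6, with capitals marking a cAMP response element (CRE, TGACGTCA) or the shorter CRE core (TGACG on either strand).
Proximal promoter, the 250 bases before the reference start, chr5:51553922-51554171, minus strand: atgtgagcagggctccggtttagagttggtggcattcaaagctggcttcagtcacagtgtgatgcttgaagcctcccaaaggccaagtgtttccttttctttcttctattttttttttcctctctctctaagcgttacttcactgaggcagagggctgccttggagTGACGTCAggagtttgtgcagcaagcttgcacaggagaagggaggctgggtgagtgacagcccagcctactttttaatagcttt
Upstream promoter, chr5:51567676-51567975, minus strand, from RefSeq: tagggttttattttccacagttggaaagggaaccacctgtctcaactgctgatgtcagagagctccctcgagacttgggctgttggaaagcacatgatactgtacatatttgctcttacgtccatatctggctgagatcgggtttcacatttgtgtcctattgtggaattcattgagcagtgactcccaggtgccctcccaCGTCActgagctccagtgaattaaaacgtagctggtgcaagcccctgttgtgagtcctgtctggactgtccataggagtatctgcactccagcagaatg
The proximal promoter held the whole CRE at −84 from its start, a word found on either strand in 1.79% of 32851 RefSeq promoter windows. The upstream promoter held a CRE core at −49 from its own start, as did 20.8% of promoter windows at some position. The ERR word TCAAGGTCA and a match to MEF2 were in neither window.

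The second set are distal sites, read on the plus strand, with capitals marking the nuclear receptor motif (AGGTCA on either strand), an E-box (CAGCTG) or an AP-1 word (TGACTCA or TGAGTCA).
Accessible site in region 9, 16740 bases downstream of the start, chr5:51537084-51537278: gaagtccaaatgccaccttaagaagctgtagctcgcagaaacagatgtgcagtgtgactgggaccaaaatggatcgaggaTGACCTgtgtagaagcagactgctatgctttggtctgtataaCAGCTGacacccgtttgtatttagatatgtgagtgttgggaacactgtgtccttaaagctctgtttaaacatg
Accessible site in region 14, at −41892 bases, chr5:51595716-51595910: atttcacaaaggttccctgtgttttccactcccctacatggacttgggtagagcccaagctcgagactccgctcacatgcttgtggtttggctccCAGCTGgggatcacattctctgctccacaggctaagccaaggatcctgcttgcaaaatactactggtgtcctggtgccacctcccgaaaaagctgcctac
MED1 site of diaphragm in region 14, at −37926 bases, chr5:51591742-51591952: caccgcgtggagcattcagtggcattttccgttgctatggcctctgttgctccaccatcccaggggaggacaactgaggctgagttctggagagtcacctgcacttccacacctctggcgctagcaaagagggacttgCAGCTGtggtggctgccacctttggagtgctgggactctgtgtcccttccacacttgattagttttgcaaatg
MED1 site of soleus in region 1, at 512389 bases, chr5:51041427-51041637: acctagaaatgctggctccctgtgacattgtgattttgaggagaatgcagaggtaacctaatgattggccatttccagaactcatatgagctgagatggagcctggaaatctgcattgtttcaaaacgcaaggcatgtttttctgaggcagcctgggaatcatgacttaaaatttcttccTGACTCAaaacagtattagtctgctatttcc
Among 44911 accessible sites of quadriceps, 21.1% held the E-box, 15.97% the nuclear receptor motif and 8.16% an AP-1 word. The distal sites shown were picked because they held such words, other accessible and MED1 sites of the gene did not or are not shown, and the one in region 9 had a signal of only 5.32, at the 31.6th percentile of all sites. These matches are letters in the window and were not read as bound sites.

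Every one of the 16 lists had a peak over the proximal promoter of Ppargc1a and in the intron region 9. Region 1, at 513 kb, had an H3K27ac peak in all 8 groups but an H3K4me2 peak in only 3 (EDL, Sol and Sed). Regions 2, 4, 10, 13 and 14 had H3K27ac peaks in 7 groups, each lacking one in the Ex list. Region 3 lacked one in Sol and Ex. Region 7 (chr5:51438727-51440971, 114 kb) had an H3K27ac peak in Sol, Dia, Wt and mTg. Region 11, over exon 2, had one in Wt and mTg, region 15 in Dia alone and region 18 in Wt alone. Regions 5, 6, 8, 16 and 17 had H3K4me2 peaks only, in 1 or 2 groups each.

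**Figure D1:**
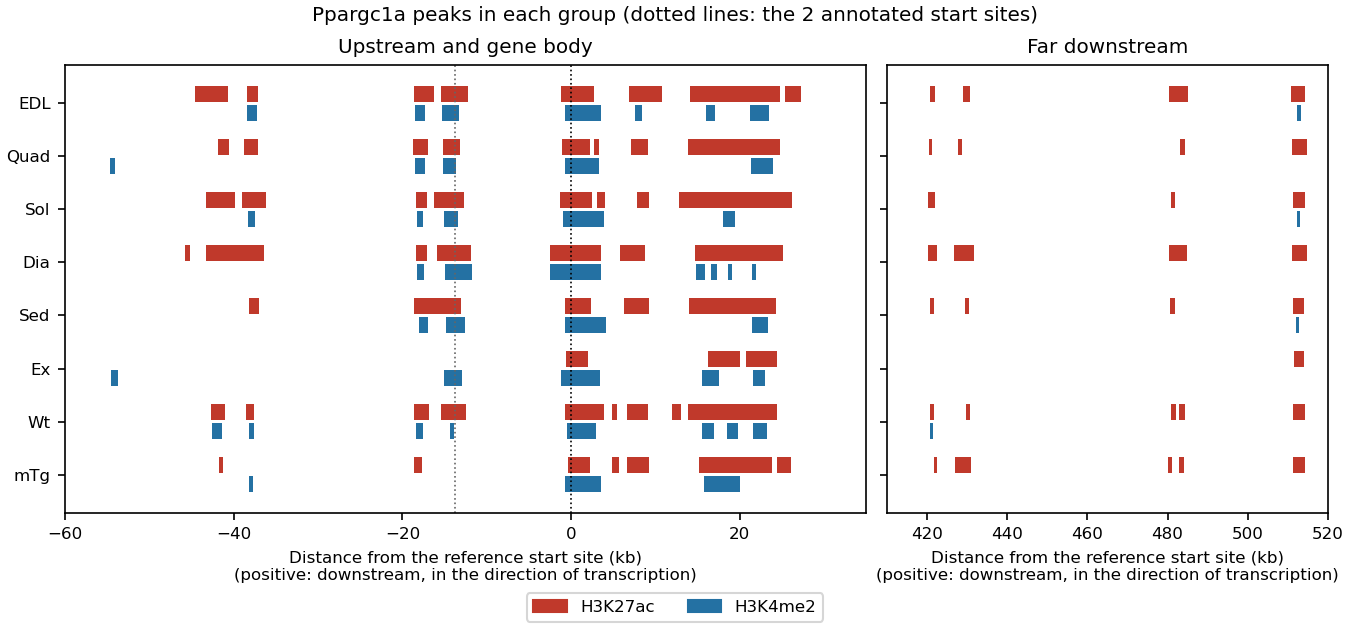
Positions of the Ppargc1a peaks in each of the 8 groups, as distance in kb from the reference start site, with H3K27ac peaks in red and H3K4me2 peaks in blue and bar lengths to scale. The dotted lines are the reference start and the upstream start; the Ex row has 4 H3K27ac peaks and the Sed row 9, and regions outside both windows are not drawn.

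By annotation, 54 of the 90 H3K27ac peaks of Ppargc1a were intergenic, 30 intronic, 5 at a promoter and 1 exonic. The 5 were at the upstream start in EDL, Quad, Sol, Dia and Wt, whereas the broad peaks over the proximal start were centered in intron 1 and were annotated so. The 108 H3K27ac peaks of Ppargc1b lay mostly in introns (92), with 15 intergenic, 1 exonic and 0 annotated as promoter, and the peaks over its start site were likewise centered in an intron. A peak of Ppargc1a had a median width of 2158 bp for H3K27ac and 1132 bp for H3K4me2. The H3K27ac peaks numbered 12 in each of EDL, Quad, Sol and Dia, 9 in Sed, 4 in Ex, 16 in Wt and 13 in mTg.

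The level of a region is given as log2 tags per kb relative to the median of all peaks of the same list, separately for each library. Each list was normalized on its own, so levels in different groups stand side by side without a test. The proximal promoter had the highest mean H3K27ac level of the Ppargc1a regions in 7 groups, and in Dia region 1 was higher, with a mean of 1.53 against 1.41. Its H3K27ac level was 2.27 and 1.70 in the EDL libraries, 1.62 and 1.27 in Quad, 1.67 and 1.18 in Sol, and 1.67 and 1.16 in Dia. It was 1.76 and 1.22 in Sed, 1.06 and 0.78 in Ex, 1.44 and 1.83 in Wt, and 2.06 and 1.58 in mTg. Both Ex libraries lay below every library of the other 7 groups.

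The upstream promoter (region 13) had H3K27ac levels of 1.39 and 0.55 in EDL, 1.40 and 0.54 in Quad, 0.95 and 0.06 in Sol, and 1.45 and 0.50 in Dia. The replicates of a group were thus further apart than the means of the muscles. The library given first was the higher in each of these muscles. Among libraries of the same number, Sol was the lowest of them. Whether same-numbered libraries shared a batch was not tested. In Sed the levels were 0.68 and −0.14, in Wt 0.79 and 1.29, and in mTg 0.49 and 0.09, with no peak in Ex. The mTg peak covered 924 bp of this region and did not reach the upstream start, against 4731 bp in Wt.

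The intron region 9 had levels of 1.50 and 1.30 in EDL and 1.14 and 1.43 in Quad, but 0.61 and 0.28 in Sol and 0.60 and 0.54 in Dia. The libraries of EDL and Quad lay above those of Sol and Dia, but the Sed libraries, also of sedentary wild-type quadriceps, were at 1.05 and 0.13 and spanned them. The far downstream region 4 (chr5:51131485-51133734, 421 kb) was high in Dia, at 0.76 and 0.72, and lay between −1.39 and 0.02 in every library of the other groups with a peak. Region 3 (chr5:51122128-51127159, 429 kb) was likewise highest in Dia, at 0.38 and 0.77, over a peak of 5031 bp. Region 14 had levels of 0.84 and 0.06 in Sol, 0.98 and −0.22 in Dia, 0.30 and −0.74 in EDL, and 0.10 and −0.77 in Quad, so that the libraries of these muscles overlapped. The library given first was again the higher in each muscle. Among libraries of the same number, Sol and Dia lay above EDL and Quad.

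**Figure D2:**
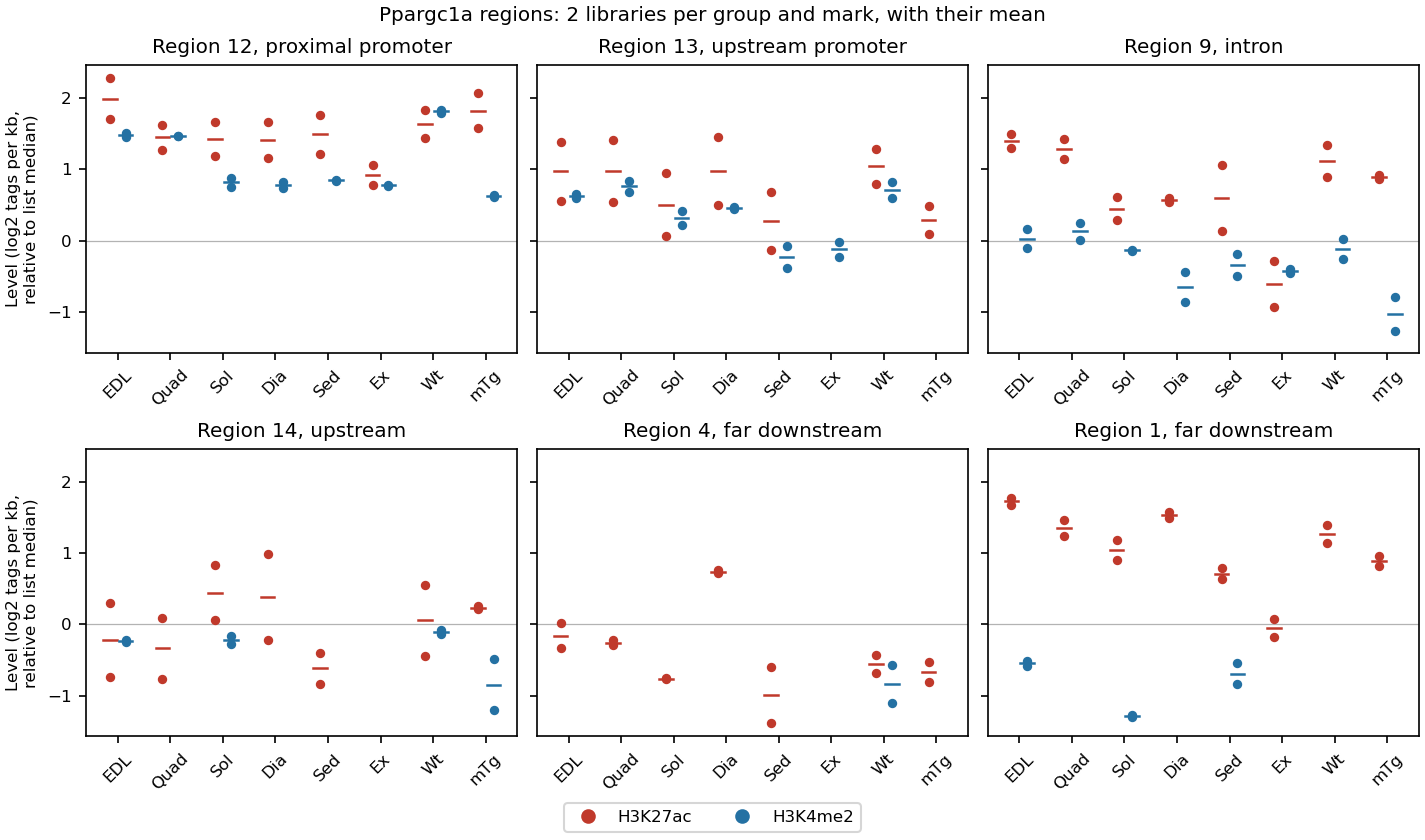
Levels of 6 Ppargc1a regions, in log2 tags per kb relative to the median of the list, for the 2 libraries of each group and mark (points) with their mean (bar). A group with no point had no peak; for H3K27ac, the 2 Sed libraries of region 9 spanned those of Sol and Dia, and region 4 was highest in Dia.

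Where a peak of 1 muscle overlapped a peak of Quad by at least 50% of each, the difference between the 2 lists could be given for the same place. Sol and Quad shared 8 such H3K27ac regions of Ppargc1a, of which 2 were over 2-fold apart with replicates that did not overlap, against 5.55% of all 19463 shared regions. One was the far part of the upstream promoter region (chr5:51571054-51572359 in Sol), which differed by −1.06 on the log2 scale. Its levels were 0.40 and −0.52 in Sol against 1.26 and 0.74 in Quad. The other was the part of region 14 (chr5:51590131-51592999 in Sol) around a MED1 site that was called in diaphragm and not in soleus. This part was 1.03 higher in Sol, with levels of 0.84 and 0.17 against 0.11 and −1.16. The nearest libraries of the 2 muscles were thus only slightly apart. The median of all shared regions was −0.22, and these 2 went in opposite directions. Dia and Quad shared 6 regions of Ppargc1a and EDL and Quad shared 7, with 0 over 2-fold apart in either, against 5.61% and 1.08% of all. For H3K4me2, 0 of 3, 0 of 2 and 0 of 4 shared regions were over 2-fold apart from Quad in Sol, Dia and EDL, against 3.03%, 3.54% and 0.478% of all. At the proximal promoter, H3K4me2 levels were 1.51 and 1.46 in EDL and 1.47 and 1.46 in Quad, but 0.75 and 0.88 in Sol and 0.82 and 0.74 in Dia. The Sed libraries, also of sedentary wild-type quadriceps, were at 0.86 and 0.84, among those of Sol and Dia. Quad thus differed from Sed nearly as much as from these muscles.

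For Ppargc1b, Sol and Quad shared 6 H3K27ac regions and 1 was over 2-fold apart, against 5.55% of all shared regions. This was an intergenic region upstream of the gene, at −16.3 kb (region 8, chr18:61416043-61417442 in Sol). Its level was −0.91 and −0.62 in Sol against 0.76 and 0.39 in Quad, a difference of −1.34. None of the 8 regions shared with Dia or the 8 shared with EDL was over 2-fold apart, against 5.61% and 1.08% of all. For H3K4me2 none of the 1, 2 and 2 regions shared with Sol, Dia and EDL was, against 3.03%, 3.54% and 0.478% of all.

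Summed over all its peaks, the H3K27ac of Ppargc1a relative to the list median ran, in log2 units, from 5.73 ± 0.29 (SD, n = 2) in Wt through 5.50 ± 0.19 in Dia, 5.40 ± 0.26 in EDL, 5.25 ± 0.08 in Quad, 4.97 ± 0.0092 in mTg, 4.90 ± 0.35 in Sol and 4.29 ± 0.53 in Sed to 2.65 ± 0.28 in Ex. Neighbors from Wt to Quad overlapped in their libraries, as did mTg, Sol and Sed, while Quad stood apart from mTg and Sed from Ex. These sums are of tags, not divided by width, and a place without a called peak adds nothing. They therefore rise with the number and width of called peaks, which were 4 over 12648 bp in Ex and 9 over 28653 bp in Sed. The 3 sedentary wild-type quadriceps groups differed by 1.44 among themselves. Ex was lower than Sed by more than that range, with a difference of −1.64, while the difference of −0.76 between mTg and Wt was within it. The H3K4me2 sum of Ppargc1a differed little between Ex and Sed, at 3.11 ± 0.03 and 3.10 ± 0.08, within a range over the 8 groups from 4.32 ± 0.08 in the libraries labelled Wt to 2.43 ± 0.07 in those labelled mTg.

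The H3K27ac sum of Ppargc1b was highest in Wt, at 6.48 ± 0.0061, followed by mTg (6.40 ± 0.09), Quad (6.15 ± 0.21), EDL (5.97 ± 0.0047), Dia (5.84 ± 0.05), Sol (5.61 ± 0.15), Sed (5.32 ± 0.13) and Ex (4.23 ± 0.09). No neighbors in this order overlapped in their libraries. Here Ex differed from Sed by −1.10, which is within the 1.16 that separated the 3 sedentary wild-type quadriceps groups, and mTg from Wt by −0.08.

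The promoter of Ppargc1b (region 7, chr18:61390690-61401667) had the highest mean H3K27ac level of any member region in each group, with means from 1.36 in Ex to 2.42 in Wt and a peak in all 16 lists. An intronic block of 36083 bp (region 3, chr18:61328683-61364766, 53.7 kb) held 39 H3K27ac and 27 H3K4me2 peaks over the 8 groups. Its H3K27ac level was 1.28 and 1.15 in mTg, 0.90 and 0.89 in Wt, 0.31 and 0.03 in Sed, and −0.40 and −0.44 in Ex. The mTg libraries were the highest and the Ex libraries the lowest of all groups there. A second intronic block (region 6, chr18:61373245-61390338, 18.6 kb) was at −0.86 and −1.09 in Ex, where the single peak covered 1200 bp, against 0.25 and 0.08 in Sed, where peaks covered 13274 bp. The upstream region 8 had an H3K27ac peak in every group but Ex.

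**Figure D3:**
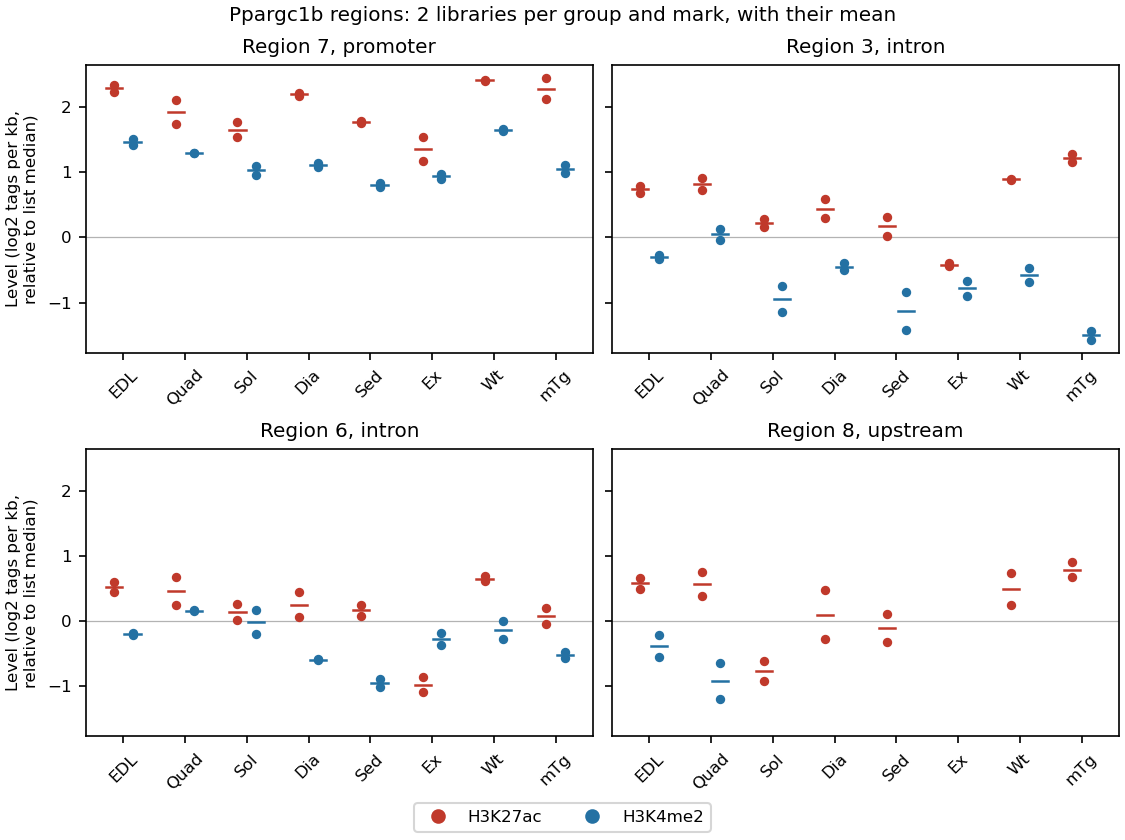
Levels of 4 Ppargc1b regions, in log2 tags per kb relative to the median of the list, for the 2 libraries of each group and mark (points) with their mean (bar). The promoter was above 1 for H3K27ac in every library, the Ex libraries were lowest in regions 3 and 6, and region 8 had no Ex peak.

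The comparison of Ex with Sed asks how voluntary running changed the marks in quadriceps. The Ex list held 4 H3K27ac peaks of Ppargc1a, 1 each at regions 1 and 12 and 2 in region 9, and the Sed list 9, although the lists were of like length (34572 and 34031 peaks). Of the 9 Sed peaks, 6 had no overlapping Ex peak, against 26.9% of all Sed peaks, while 0 of the 4 Ex peaks lacked a Sed peak. For Ppargc1b, 3 of 12 Sed peaks had no overlapping Ex peak, and 0 of 11 Ex peaks had no Sed peak. For H3K4me2, 2 of 5 Sed peaks of Ppargc1a and 3 of 5 of Ppargc1b had none, against 27.4% of all. In the other direction, 2 of 5 Ex peaks of Ppargc1a and 6 of 8 of Ppargc1b had no overlapping Sed peak. The share of all Ex peaks without a Sed peak was not counted for either mark, so the counts of Ex peaks stand without a comparison.

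The 2 H3K27ac regions of Ppargc1a that both lists called at the same place differed by −0.75 (region 1) and −0.58 (proximal promoter) in Ex relative to Sed, in both cases with both Ex libraries below both Sed libraries. The 4 shared regions of Ppargc1b differed by −0.63 to −0.17, the promoter by −0.41, and 2 of the 4 had libraries that overlapped. None of these 6 was over 2-fold apart, against 2.89% of all 18426 shared regions, whose median was 0.05. For H3K4me2, 0 of the 5 shared member regions were over 2-fold apart, against 0.106% of all, and the differences lay between −0.07 and 0.15. The proximal promoter of Ppargc1a had H3K4me2 levels of 0.78 and 0.76 in Ex and 0.86 and 0.84 in Sed.

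The authors' lists of exercise-modified H3K27ac regions (EMRs), in which the Ex and Sed libraries were normalized together, held 3 member regions, all of them hypoacetylated in Ex. The differences were estimated with limma on the deposited log2 tags of the whole list. Since the list was chosen on these 4 libraries, 99.7% of its 2280 regions passed an adjusted p of 0.05, and the fit gives the size of a difference rather than independent support for it. Its variance was pooled over the list, so the SE was the same for all 3 regions and does not measure a region's own spread. The SDs of the libraries were 0.35 (Ex) and 0.50 (Sed) at the upstream promoter of Ppargc1a, and 0.10 and 0.02 at the region of Ppargc1b. At the upstream promoter of Ppargc1a (chr5:51567004-51572524) the Sed libraries had 8.88 and 8.17 log2 tags and the Ex libraries 7.79 and 7.30. The difference was −0.98 ± 0.21 (SE), to 0.506 of the Sed tags (limma, adjusted p = 7.594e-05, n = 2 per group), and the groups did not overlap. It was −0.63 without Sed replicate 1.

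At the intronic EMR of Ppargc1a (chr5:51544692-51547603, in region 10) the tags were 7.06 and 6.39 in Sed and 6.16 and 5.88 in Ex. The difference was −0.70 ± 0.21 (limma, adjusted p = 0.001743), but it was lost without Sed replicate 1 (−0.37, limma adjusted p = 0.0976) and without Ex replicate 2 (−0.56, limma adjusted p = 0.07786). The EMR of Ppargc1b was intronic too (chr18:61366665-61370895, 31.6 kb), with 7.83 and 7.80 log2 tags in Sed and 7.05 and 7.19 in Ex. It fell by 0.70 ± 0.21 (limma, adjusted p = 0.001831), and its Sed libraries were the closest pair of the 3 regions. None of the regions hyperacetylated in Ex belonged to either gene.

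Scores of several sets of marker genes, though not of all, also differed between Sed and Ex. The summed H3K27ac score of the 4 muscle markers was 3594 in Sed and 1686 in Ex, and that of the 3 fast fiber markers was 2632 and 922. The 3 macrophage markers summed to 146 in Sed and 424 in Ex. The 2 fibroblast markers summed to 563 and 1314 and the 3 endothelial markers to 1814 and 2319, each 1 value per list without a test. The 2 satellite cell markers summed to 143 in Sed and 64.4 in Ex, with no peak at Myf5 in Ex. The 3 slow fiber markers summed to 100 in Sed and 117.9 in Ex, so they did not fall with the muscle and fast fiber markers. The 4 adipocyte markers were nearly unchanged, at 250.7 in Sed and 250.67 in Ex. These scores are H3K27ac at the marker genes, whereas by qPCR of RNA the study reported no change of immune, vascular, satellite cell or myogenic markers in Ex muscle. The part of cell composition in the Ppargc1a and Ppargc1b differences was not tested.

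The comparison of mTg with Wt asks how PGC1α overexpression changed the marks at the endogenous genes. Of the 16 Wt H3K27ac peaks of Ppargc1a, 4 had no overlapping mTg peak, and of the 23 of Ppargc1b 5 had none, against 44.8% of all Wt peaks. In the H3K4me2 lists labelled Wt and mTg, 7 of 11 Ppargc1a peaks and 9 of 11 Ppargc1b peaks had none, against 50.1% of all. The Wt lists were longer than the mTg lists for both marks, with 49010 against 36169 H3K27ac peaks and 46944 against 27527 H3K4me2 peaks.

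Wt and mTg shared 8 H3K27ac regions of Ppargc1a, with 0 over 2-fold apart, and 5 of Ppargc1b, with 1, against 6.78% of all 17444 shared regions, whose median was −0.22. At Ppargc1a the differences ran from −0.92 (region 2, 483 kb) to 0.41 (region 7). The proximal promoter differed by 0.19, with libraries of 2.06 and 1.58 in mTg and 1.44 and 1.83 in Wt that overlapped. The promoter of Ppargc1b was at 3.06 and 2.73 in mTg (chr18:61396555-61401162) and at 2.42 and 2.41 in Wt, a difference of 0.48 that came with a narrower mTg peak. Over all peaks of region 7 the levels were 2.44 and 2.12 in mTg, covering 7411 bp, and 2.42 and 2.41 in Wt, covering 7635 bp, so that the libraries overlapped. The region over 2-fold apart was intronic (chr18:61380362-61382346 in mTg, in region 6), at −0.04 and 0.09 in mTg against 1.19 and 1.42 in Wt, a difference of −1.27. The H3K4me2 libraries labelled mTg were lower than those labelled Wt at the 3 shared member regions, by over 2-fold at 2 of 2 of Ppargc1a (−1.19 at the proximal promoter and −1.04 in region 14) and 0 of 1 of Ppargc1b. All 19190 shared H3K4me2 regions had a median of −0.90 and 36.5% were over 2-fold apart, so that the members' share cannot be read apart from this shift.

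The PGC1α-modified H3K27ac regions (PMRs) held 3 member regions. One belonged to Ppargc1a and lay far downstream in region 4 (chr5:51131485-51133285, 422 kb from the start), with 6.01 and 6.20 log2 tags in mTg and 5.41 and 5.63 in Wt. It was hyperacetylated by 0.59 ± 0.13 (limma, adjusted p = 0.0001651, n = 2 per group), or 1.50-fold. In the separately normalized peak lists, region 4 was at −0.81 and −0.53 in mTg and at −0.67 and −0.43 in Wt, which overlap. These peaks covered 848 bp in mTg and 1061 bp in Wt and were narrower than the PMR. The levels are therefore not of the same stretch as the PMR. Neither promoter of Ppargc1a was in a PMR list.

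The other hyperacetylated PMR lay in the intronic block of Ppargc1b (chr18:61341842-61352348, in region 3). Its tags were 9.88 and 9.81 in mTg and 8.95 and 9.01 in Wt, a difference of 0.86 ± 0.12 (limma, adjusted p = 8.882e-07), or 1.82-fold. A hypoacetylated PMR lay closer to the start of the same gene (chr18:61376086-61377377, 23.7 kb), with 4.72 and 4.90 log2 tags in mTg and 5.25 and 5.35 in Wt. It differed by −0.49 ± 0.13 (limma, adjusted p = 0.001157). Ppargc1b thus had intronic H3K27ac regions that moved in opposite directions in the same libraries. In both PMR lists 100% of the regions (1828 and 844) passed the adjusted p of 0.05, again because the lists were chosen on these libraries. The SEs again drew on the variance of the whole list. The summed score of the 4 muscle markers was 4670 in Wt and 6797 in mTg, that of the fast fiber markers 3590 and 2732 and that of the slow fiber markers 63.8 and 12.3. The 4 adipocyte markers summed to 326 and 852, with Ucp1 lacking a peak in both lists. The sums were 409 and 231 for macrophages, 515 and 299 for fibroblasts, 1126 and 1383 for endothelium and 97.5 and 111 for satellite cells. By qPCR of RNA, another measure than these scores, the study reported higher macrophage and vascular markers in mTg muscle. The part of cell composition in the member differences was not tested.

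**Figure D4:**
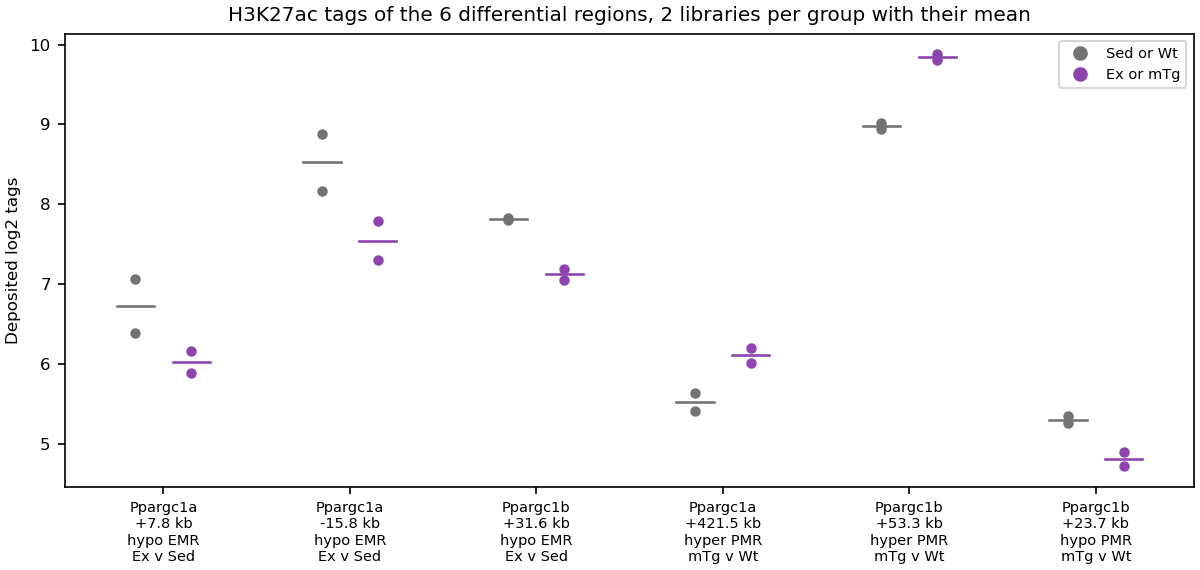
Deposited log2 H3K27ac tags in the 6 differential regions of Ppargc1a and Ppargc1b, with the 2 Sed or Wt libraries in grey, the 2 Ex or mTg libraries in purple and bars at the means. The label under each region gives the distance of its center from the reference start in kb; the groups do not overlap in any of the 6.

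Accessible chromatin and factor binding were available for some muscles. In pooled control quadriceps, 17 ATAC-seq sites lay in the member regions, 10 at Ppargc1a and 7 at Ppargc1b. The strongest at Ppargc1a was in the intron region 9 (chr5:51534541-51534735, 19283 bases from the start), with a signal of 12.4, at the 77.9th percentile of all sites. Another, at −8 bases with a signal of 9.24, covered the proximal start and the CRE printed above. The site next to the upstream start had a signal of 6.64. At Ppargc1b the strongest was an intronic site of signal 17.3 in region 6 (chr18:61380264-61380458), at the 88.8th percentile, and no site fell in its promoter region 7.

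MED1, a subunit of the mediator complex that nuclear receptors and PGC1α engage, was mapped in 1 library for each muscle. Diaphragm had 2 MED1 sites at Ppargc1a, both in region 14, with a score of 7.83 each. Soleus had 1, in region 1, with a score of 6.43, and it lay in the same region as the accessible site at 512781 bases. Quadriceps had 1 outside the member regions and EDL 0, with lists of 2145 (diaphragm), 4070 (soleus), 3593 (quadriceps) and 834 (EDL) sites. Ppargc1b had none in any of the 4 muscles. NFAT, a calcium-regulated factor, had 15 sites assigned to Ppargc1a in soleus, of 39661, and none of the 15 was in a member region. The share of all MED1 or NFAT sites that lay in marked regions was not counted, so these counts stand without a comparison. At Ppargc1b NFAT had 0 sites in soleus. In quadriceps NFAT had 0 sites at either gene, of 485.

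Summed H3K27ac tags of called peaks, not divided by width, were then compared over the 8 groups among 9524 genes with a peak in every group. The genes whose sum followed that of Ppargc1a most closely were Adcy2 (r = 0.988), Zc3hc1 (0.986), B3galt2 (0.984), Slc38a3 (0.983) and Mir466q (0.981). The 8 points share their list normalization and include Ex and Sed, which lay farthest from the median. Without these 2 groups the correlations were 0.924, 0.846, 0.910, 0.893 and 0.798. Ppargc1b ranked 166th, with r = 0.924 over 8 groups and 0.371 without Ex and Sed.

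The PGC1 pathway was then described from a list of 73 genes, of which 66 had an H3K27ac peak in Ex or Sed. Of these, 22, Ppargc1a and Ppargc1b among them, had a hypoacetylated EMR, against 10.6% of all genes with a peak, and 0 had a hyperacetylated EMR, against 2.34%. Of 67 genes with a peak in mTg or Wt, 17 had a hyperacetylated PMR, against 9.22%, and 7 a hypoacetylated PMR, against 4.38%. The pathway genes had more peaks to be chosen from, with medians of 5 and 8 peaks per gene in the Ex and Sed and the mTg and Wt lists against 3 for all genes in both. The third gene of the family, Pprc1, had no EMR or PMR.

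Among partners of the coactivators, 8 of 22 genes had a hypoacetylated EMR (Esrrg, Ppard, Rxrg, Thrb, Mef2a, Mef2c, Foxo1 and Nrip1). Mef2a encodes a factor that PGC1α coactivates and that acts on the Ppargc1a promoter. An upstream region of Mef2a had 8.06 and 7.40 log2 tags in Sed and 7.16 and 6.68 in Ex, a difference of −0.81. A region near the start of Mef2c differed by −0.85. Of 23 partners, 6 had a hyperacetylated PMR (Esrrb, Esrrg, Ppara, Pparg, Thrb and Ncor1) and 1 a hypoacetylated PMR (Rxrg). The largest was at the start of Esrrb, an estrogen-related receptor, with 8.11 and 7.69 log2 tags in mTg and 6.05 and 6.07 in Wt, a difference of 1.85. Esrrg, which encodes another receptor of that family, differed by 1.51 near its start in mTg, while 2 other regions of it differed by −0.61 and −0.58 in Ex. Esrrg and Thrb, a thyroid hormone receptor gene, were thus in the hyperacetylated PMR and hypoacetylated EMR lists at different regions.

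Among genes for upstream signals, 5 of 16 had a hypoacetylated EMR (among them Prkaa2, Prkag3, Camk2a and Hdac4) and 5 of 16 a hypoacetylated PMR (Prkag3, Sirt1, Camk2a, Ppp3ca and Hdac4). Prkag3, a regulatory subunit of AMP-activated protein kinase, had the largest fall of this role in mTg at an upstream region, with 7.38 and 7.13 log2 tags in mTg and 8.14 and 8.45 in Wt, a difference of −1.04. Its EMR at the same place differed by −0.86.

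Among mitochondrial and metabolic targets, 8 of 25 had a hyperacetylated PMR (Cox5b, Cpt1b, Acadvl, Cd36, Fabp3, Ucp3, Fndc5 and Mb) and 0 a hypoacetylated one. Fndc5 had 8.20 and 8.07 log2 tags in mTg and 6.26 and 6.80 in Wt near its start, a difference of 1.61. A region upstream of Fabp3, the muscle fatty acid binding protein, differed by 1.25. A region at Cd36, a fatty acid transporter, differed by 1.15. In Ex, 7 of 25 had a hypoacetylated EMR (Tfam, Idh3a, Pdk4, Ucp3, Slc25a4, Perm1 and Vegfa), among them Tfam, the mitochondrial transcription factor, at −0.91, and 3 regions of Pdk4, which restrains glucose oxidation, from −0.92 to −0.80.

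**Figure D5:**
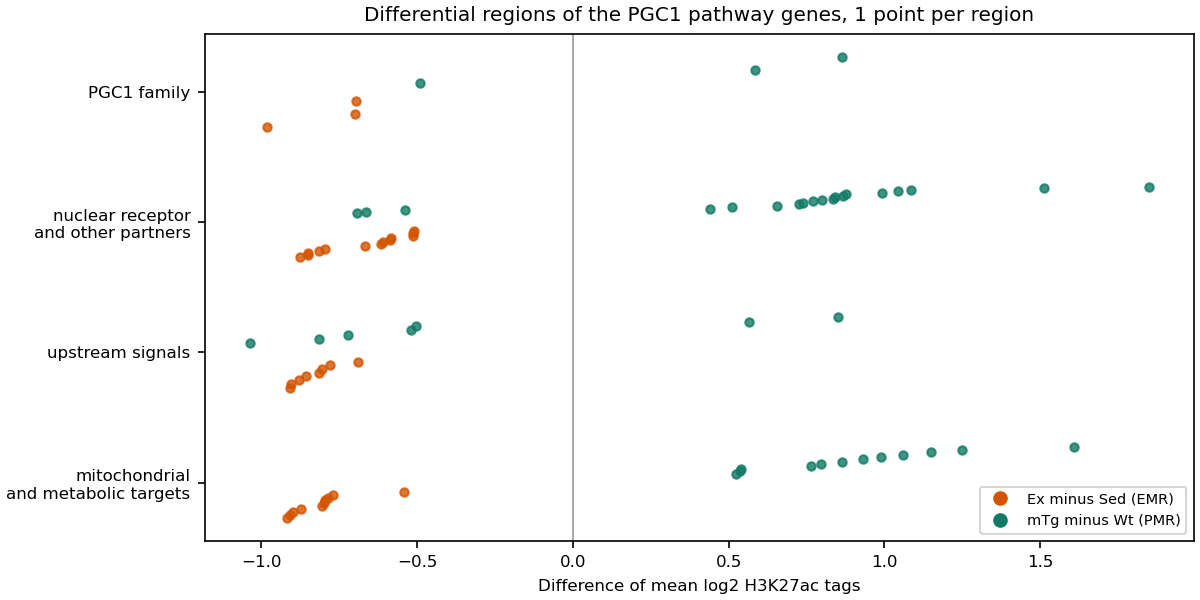
Difference of mean log2 H3K27ac tags at each EMR (Ex minus Sed, orange) and PMR (mTg minus Wt, green) of the 73 pathway genes, 1 point per region, by role. The EMRs are all below 0, and the PMRs range from −1.04 at Prkag3 to 1.85 at Esrrb; vertical offsets within a row carry no meaning.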

How the data were processed

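The analysis used 16 deposited peak lists of histone marks, 4 lists of differential H3K27ac regions and the lists of ATAC-seq, MED1 and NFAT sites. Per the labels and the study's methods, the authors aligned reads uniquely to mm10 with Bowtie, kept 1 tag per position, and called peaks over both replicates against input with HOMER at 2-fold and an FDR of 0.05. The deposited log2 tag values, written per the file headers by HOMER with DESeq2 (the exact transformation is not given in the sources used here), were normalized by the authors within each list, and the differential lists over 4 libraries together. Deposited p-values and log2 ratios over input served only as filters in alternatives. Peak scores and the ATAC signal are the authors' values per list, and columns of fold changes between groups were not used. A level was log2 tags minus log2 of the width in kb, centered on the list median per library. Differential lists were fitted with limma 3.58.1 (R 4.3.3), two-sided, with Benjamini-Hochberg adjustment over the list. On simulated data with 200 regions a list changed by 1 log2 unit, the fit recovered 99 to 100% of them. The simulation gave every region the same spread and the member differences were smaller, so this recovery does not carry over to them. Replicates were separate animals or pools, 2 per group, and 1 library per muscle for MED1 and NFAT; tag numbers limit the low peaks. Named genes were both members, every pathway gene with an EMR or PMR (1 is not reported here) and the 5 genes most like Ppargc1a. Members and lists were chosen with earlier results of these data known. Accessible-site and footprint tables on another genome build were not used here.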

Additional observations from a re-analysis of the deposited data

How the results depend on the processing

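Of 139 alternatives to 26 results, 111 left the result called as before or within the spread between replicates, 26 moved its value and 2 lost its call, and the cause was not tested except where fewer regions or libraries entered. Of the 111, 4 had the other sign. EDL and Quad H3K27ac was 0.15, but −0.094 without division by width and −0.078 without Quad replicate 2. Ex and Sed H3K4me2 was 0.02, but −0.025 without division by width and −0.063 without Sed replicate 1. With the authors' adjusted p under 0.001, Ppargc1a kept 54 of 90 H3K27ac and 23 of 53 H3K4me2 peaks, and Ppargc1b 62 of 108 and 30 of 73. Within 100 kb of the start, 55 H3K27ac peaks of Ppargc1a remained. With lists of equal length by score, Ppargc1b had 46 H3K4me2 peaks. Without the H3K4me2 lists labelled Wt and mTg, an alternative also chosen after seeing the data, Ppargc1a had 38 and Ppargc1b 57 H3K4me2 peaks. Over the shared regions of both genes, the median difference without division by width was −0.66 (Sol and Quad, −0.29 with it), −0.71 (Ex and Sed, −0.49) and −0.57 (mTg and Wt, −0.24) for H3K27ac. For H3K4me2 it was −0.73 (Sol, −0.54), −0.79 (Dia, −0.43), −0.16 (EDL, −0.07) and −1.81 (libraries labelled mTg and Wt, −1.04). Centering on the shared regions, likewise chosen after seeing the data, gave −0.026 for Sol and 0.025 for Dia (−0.20 with the list median) for H3K27ac, and −0.31 for Sol, −0.10 for Dia and −0.13 for the libraries labelled mTg and Wt for H3K4me2. An 80% overlap gave 0.097 for Dia H3K27ac. Leaving out 1 library gave −0.42 (without Quad replicate 2) to 0.0042 (without Dia replicate 2) for Dia H3K27ac, −0.35 (without Wt replicate 1) to 0.066 (without Wt replicate 2) for mTg H3K27ac, −0.063 to 0.16 (without Sed replicates 1 and 2 in turn) for Ex H3K4me2 (0.02 with all 4) and −1.17 to −0.69 (without mTg replicates 1 and 2 in turn) for H3K4me2 of the libraries labelled mTg and Wt. It gave −1.03 to −0.37 for the intronic EMR of Ppargc1a. Among the 5 genes most like Ppargc1a, 1 was kept with Spearman's rho and 0 with the strongest peak. Replicate numbers were treated as only shared numbers. In the 4 differential lists same-numbered libraries correlated from −0.24 to 0.14. Pairing among EDL, Quad, Sol and Dia was not checked. At regions 13 and 14 of Ppargc1a, replicate 1 had the higher H3K27ac level in each of these muscles. In the differential lists a replicate block changed no call, with a limma adjusted p of 4.005e-05 at the intronic EMR of Ppargc1a.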
